A study of Mus musculus with 4 samples.

Results

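The regions described here are H3K9me3 peaks in gene deserts, the long stretches of the mouse genome that lie far from any protein-coding gene. A peak was taken when its midpoint lay at 6 Mb or beyond on chromosomes 1 to 19 without 14 and more than 500.0 kb from the nearest protein-coding gene body (mm10 coordinates, genes from RefSeq). This rule gave 21108 of the 105864 peaks in the control list and 20772 of the 113688 peaks in the deleted list. Chromosome 6 is given apart, with 1772 of these control peaks and 1240 of these deleted-list peaks, which leaves 19336 and 19532 on the other 17 chromosomes. Native chromatin immunoprecipitation after micrococcal nuclease digestion was used to map the mark in primary muscle stem cells, which had been isolated by magnetic sorting and cultured. The control cells were labelled Setdb1lox/lox;Pax7GakaCreERT2 and received ethanol. The deleted cells were labelled Setdb1lox/lox;Pax7GakaCreERT3 and received 4-hydroxytamoxifen for the deletion of Setdb1. The final digit differs on each of the 4 labels, inputs included, and goes up by 1 from label to label. It may be a slip in filling in the labels or a different Cre allele, which cannot be told apart here. As labelled, cells of both groups carried a floxed Setdb1 allele and an inducible Cre under Pax7, a gene of muscle stem cells, and the groups differed in the agent and in this digit. Treatment lasted 72 h and chromatin corresponding to 8 µg of DNA was used. The age, sex and number of the animals are not given in the sources used here. There was 1 H3K9me3 library per group, so differences cannot be set against a replicate spread, no p-value was computed, and neither the deletion nor the cell type can be checked from peak lists. Read depth is unknown, so depth, the efficiency of the precipitation and the amount of the mark cannot be told apart.

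H3K9me3 is trimethylation of lysine 9 of histone H3, a mark of silenced chromatin that is bound by HP1 proteins. Setdb1 is one of several methyltransferases that place it, and is best known for silencing retrotransposons together with the adaptor Trim28 and zinc finger proteins. Gene deserts are often poor in GC and rich in old LINE elements. Some of them hold distant enhancers of a neighbouring developmental gene, and many lie beside genes for neuronal adhesion proteins.

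A desert is the space between 2 neighbouring protein-coding genes, and is named here by these flanking genes. Its core is what remains after 500.0 kb is cut from each side. There were 227 such cores, 216 outside chromosome 6 with 173 Mb in all (8.32% of the length of these chromosomes) and 11 on chromosome 6 with 10.0 Mb. The smallest core had 6.27 kb, the median core 500 kb and the largest 3.51 Mb. Altogether 421 protein-coding genes flanked a desert.

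Deserts are not empty of transcription units: they held 1033 RefSeq genes without a protein product that lay wholly in a core. A genome sequence was not used here, so the peaks themselves cannot be spelled out, but RefSeq promoter windows (250 bases before to 50 after a start, GRCm38.p6) exist for 194 desert genes with 219 windows. Of these, 186 (84.9%) had no base under a peak in either list. Peaks covered 7.49% of the bases of the 219 windows in control cells and 5.39% after deletion. The cores that hold them had 11.8% and 10.7%. The share of untouched windows among all RefSeq windows is not given here. Some genes, such as Gm36251 and Gm29260, have several windows that overlap nearly whole, and each was counted here and below. The 2 windows below, both of long noncoding RNA genes, were outside chromosome 6 and the immunoglobulin desert the ones touched by peaks in both lists. Gm39234 lies in the Cdh11-Cdh5 desert (chr8:103296557-103296856, plus strand), with 85 bases under a control peak and 84 under a deleted-list peak. Gm31145 lies in the Pou3f2-Mms22l desert (chr4:23835003-23835302, minus strand), with 300.0 bases under a control peak and 73 under a deleted-list peak. The sequences run 5′ to 3′, and capitals mark each CG, the dinucleotide that carries DNA methylation.
Gm39234: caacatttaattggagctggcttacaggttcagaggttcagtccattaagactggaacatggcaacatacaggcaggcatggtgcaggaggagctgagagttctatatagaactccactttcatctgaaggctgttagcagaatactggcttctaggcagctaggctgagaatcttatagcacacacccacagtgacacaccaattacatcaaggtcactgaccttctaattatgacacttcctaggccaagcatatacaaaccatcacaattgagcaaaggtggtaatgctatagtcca
Gm31145: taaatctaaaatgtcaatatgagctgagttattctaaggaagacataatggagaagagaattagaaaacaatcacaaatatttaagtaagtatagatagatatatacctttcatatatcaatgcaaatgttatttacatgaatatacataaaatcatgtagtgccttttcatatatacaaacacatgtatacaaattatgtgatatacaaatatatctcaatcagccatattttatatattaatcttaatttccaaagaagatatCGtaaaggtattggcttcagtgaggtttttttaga
Gm39234 has no CG and 44.3% GC, and Gm31145 has 1 CG and 25.0% GC. Among desert windows without a peak, the 2 with the most CG are Gm41479 (chr16:80294655-80294954, plus strand, Tmprss15-Ncam2 desert) and 4930402F11Rik (chr7:69495844-69496143, plus strand, Arrdc4-Nr2f2 desert). Both are again long noncoding RNA genes, with 15 and 14 CG. They were picked as extremes: Gm46244, with 18 CG, had 38 bases under a deleted-list peak. The median was 2 CG in the 186 windows without a peak and 1 CG in the 32 covered in part or in 1 list.
Gm41479: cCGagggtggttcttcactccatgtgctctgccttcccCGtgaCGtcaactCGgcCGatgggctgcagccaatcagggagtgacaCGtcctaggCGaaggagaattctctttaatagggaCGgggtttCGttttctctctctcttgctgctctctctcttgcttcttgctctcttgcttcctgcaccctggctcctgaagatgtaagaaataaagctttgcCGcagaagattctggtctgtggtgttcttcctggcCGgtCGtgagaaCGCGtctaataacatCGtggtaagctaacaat
4930402F11Rik: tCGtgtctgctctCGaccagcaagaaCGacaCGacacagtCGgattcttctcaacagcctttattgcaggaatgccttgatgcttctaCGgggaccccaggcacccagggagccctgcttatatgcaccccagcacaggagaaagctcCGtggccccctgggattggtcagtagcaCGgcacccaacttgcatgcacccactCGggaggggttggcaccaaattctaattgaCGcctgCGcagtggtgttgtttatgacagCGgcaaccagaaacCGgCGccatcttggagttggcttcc
Across all 219 desert windows the median GC content was 42.3%, against 52.7% for all 32851 RefSeq windows, and the median number of CG was 2 against 7. The motif TATAAA, searched on both strands, was found in 27.9% of the desert windows and in 13.6% of all windows. A match of these letters is a description and no binding site. By the desert rule no desert window belongs to a protein-coding gene, and the set of all windows was not matched for this. Position in a desert and kind of gene cannot be told apart here.

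Desert cores also held microRNA genes, shown as the small RNAs encoded there. Of 20 outside chromosome 6, 2 had a control peak, 3 a deleted-list peak and 16 neither, and the 1 on chromosome 6 had none. Peaks covered 11.1% of the bases of these 20 genes in control cells and 12.0% after deletion, near the 15.1% and 14.1% of all desert cores outside chromosome 6. The mature sequences below are from RefSeq, with the seed (bases 2 to 8) in capitals.
miR-3961: uGCCCUCAgcucaguugga
miR-6342: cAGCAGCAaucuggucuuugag
miR-344d-3p: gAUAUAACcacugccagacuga
miR-344e-3p: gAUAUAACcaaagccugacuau
miR-125b-5p: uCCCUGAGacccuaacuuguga
miR-135a-5p: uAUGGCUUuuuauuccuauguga
miR-3961 (chr13:82698278-82698296, minus strand), in the desert between Cetn3 and the muscle transcription factor gene Mef2c, was the one whose whole length lay under a peak in both lists. miR-6342 (chr1:29421552-29421573, plus strand), between Gm597 and Phf3, lay under a control peak alone. miR-344d-3p and miR-344e-3p share the seed AUAUAAC and come from a cluster between Gm51483 and Ndn on chromosome 7. Of that cluster, Mir344d-2 lay under a deleted-list peak and the other members under none. miR-125b-5p, a regulator of differentiation in many tissues, in the Usp25-Cxadr desert, and miR-135a-5p, in the Tmpo-Nedd1 desert, had no peak in either list.

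Peaks were far denser in deserts than elsewhere. Outside chromosome 6, peaks covered 15.1% of the desert cores in control cells and 14.1% after deletion, against 4.55% and 4.94% of the rest of the same chromosomes. The deserts were thus covered 3.32 times as much as the rest in control cells and 2.86 times as much after deletion. Per Mb there were 111 control peaks and 113 deleted-list peaks in deserts, against 37.4 and 41.5 in the rest. From the control to the deleted list the covered share of the deserts went down by a factor of 0.932 (log2 ratio -0.10), while that of the rest went up by 1.09 (log2 ratio 0.12). The log2 ratio of the deserts minus that of the rest was -0.22. With only the peaks whose −log10 q reached 2, the log2 ratio of the deserts was -0.91 and its difference from the rest -0.45.

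Outside chromosome 6, coverage was higher the farther a class lay from genes, and the deleted-to-control ratio was lowest in the class farthest away. Inside gene bodies, peaks covered 2.70% of the bases in control cells and 2.97% after deletion, with a ratio of 1.10. At 250 to 400 kb from a gene the values were 8.97% and 9.47%, a ratio of 1.06. Just outside the 500.0 kb limit, at 400 to 500 kb, they were 10.8% and 10.5% (0.975), and just inside it, at 500 to 600 kb, 11.1% and 10.9% (0.977), so that the limit itself marks no step. Between 600 kb and 1 Mb they were 14.4% and 13.7% (0.952), and beyond 1 Mb 19.1% and 16.97% (0.891). On chromosome 6 the values went from 5.97% and 2.85% inside gene bodies (0.478) to 30.2% and 13.1% between 600 kb and 1 Mb (0.433, its lowest ratio) and 29.8% and 13.3% beyond 1 Mb (0.446).

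**Figure D1:**
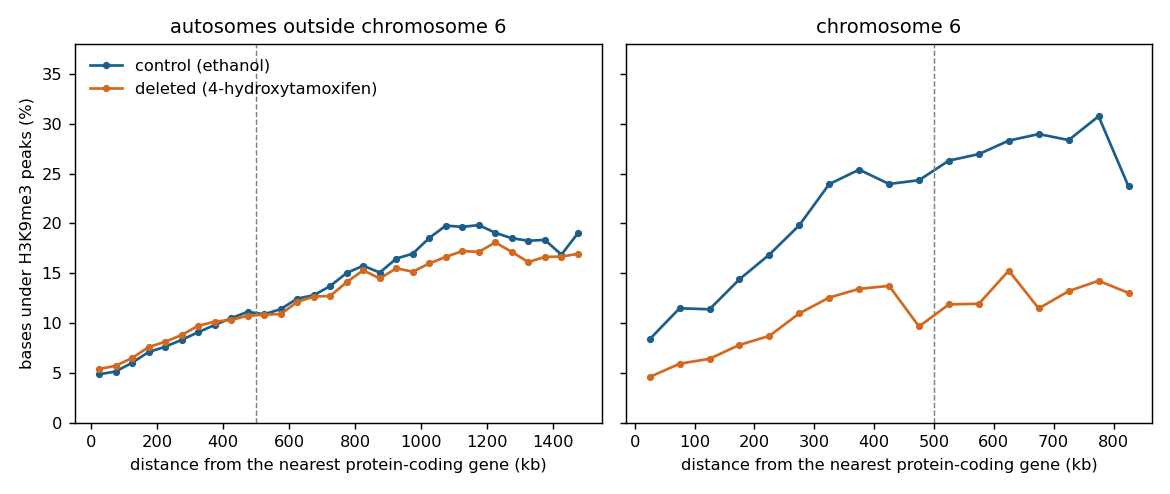
Percent of bases under H3K9me3 peaks (y axis) against distance from the nearest protein-coding gene in kb (x axis), for the 17 autosomes outside chromosome 6 (left) and chromosome 6 (right), with 1 line per list and a dashed line at 500 kb. On the left both lines rise together and the deleted list falls below the control list far from genes, while on the right the control line lies above the deleted line throughout.

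Desert peaks outside chromosome 6 were slightly wider than other peaks and of slightly lower enrichment. Their median width was 1007 bp in control cells and 954 bp after deletion, against 879 and 851 bp in the rest. The authors' fold enrichment had a median of 2.53 in control cells and 2.55 after deletion, each value within its list, against 2.57 and 2.60 in the rest. The highest desert peak reached 3.96 and 4.36, whereas peaks elsewhere reached 10.1 and 7.87. A −log10 q of 2 or more was reached by 15.7% of the control desert peaks (95% Wilson interval 15.2 to 16.2) and by 9.70% of the deleted-list desert peaks (9.29 to 10.1), against 19.5% and 12.3% in the rest. Within a desert the median spacing between neighbouring peaks was 3.41 kb in control cells and 3.35 kb after deletion. Desert coverage was thus made up of many short peaks of modest fold.

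Close to 1 in 2 desert peaks had no overlapping peak in the other list. This was so for 44.8% of the control desert peaks (44.1 to 45.5), beside 45.3% of all control peaks of these chromosomes, and for 43.9% of the deleted-list desert peaks (43.3 to 44.6), beside 49.3% of all deleted-list peaks. In the rest, the shares were 45.5% and 50.7%, so that the desert share was the lower one in the deleted list and close to the rest in the control list. The bases under peaks in both lists made up 22.1% of the bases under peaks in either, and 23.9% in the rest. Overlap by position alone is likelier where peaks are dense. Deserts held 111 control and 113 deleted-list peaks per Mb, against 37.4 and 41.5 in the rest. The shares were not adjusted for this, so they do not compare agreement between deserts and the rest. When a peak within 5 kb counted as a partner, 8.62% of the control and 6.99% of the deleted-list desert peaks had none. Neighbouring desert peaks of a list lay a median of 3.41 kb apart in the control and 3.35 kb in the deleted list, less than this distance, so this share says little about agreement between the lists.

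The relative fall was seen on most chromosomes. The deserts had a lower deleted-to-control ratio than the rest on 16 of the 17 chromosomes, chromosome 19 being the exception, with 1.17 for its 1.51 Mb of desert cores and 1.14 for the rest. The ratio of the deserts itself was below 1 on 11 chromosomes, from 0.846 on chromosome 5 upward, while the rest was above 1 on 14. Chromosomes 4, 7, 11, 12 and 18 had deserts with a higher share in the deleted list, at ratios of 1.02, 1.06, 1.06, 1.05 and 1.06. On each of them the rest had a higher ratio still, from 1.12 on chromosome 18 to 1.25 on chromosome 7.

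Of the 161 deserts outside chromosome 6 with a core of 200 kb or more, 98 (60.9%) had the lower coverage in the deleted list and 63 the higher. Among the 63 cores of 1 Mb or more, 47 were lower and 16 higher. These deserts ranged from nearly bare to heavily covered, with a median mean coverage of 8.97% over both lists. There were 61 with under 5% (ratio of their pooled coverage 0.849, 38 of them lower), 33 with 5 to under 15% (0.950, 19 lower) and 67 with 15% or more (0.933, 41 lower). Windows of 1 Mb that lay by at least 50% in a desert had a lower ratio than windows of the same coverage class outside deserts: 0.837 against 1.11 at low, 0.951 against 1.19 at middle and 0.931 against 1.04 at high coverage. The difference from the rest was therefore also present within each coverage class.

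A change of 1.5-fold or more was uncommon. It was assessed in the 153 of these deserts with at least 1% coverage in either list. In 15 of them (9.80%) coverage was lower in the deleted list by this factor, beside 5.07% of all 1 Mb windows of these chromosomes, and in 6 (3.92%) it was higher, beside 13.5% of windows. Most cores are shorter than 1 Mb, and a short core varies more than a window, so the shares are not strictly comparable. All 15 lower deserts had under 5% mean coverage, as did 5 of the 6 higher ones, and none of the 67 deserts with 15% or more passed the factor. At −log10 q of 2 or more, 77 of 108 deserts were lower by the factor, beside 55.0% of windows.

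**Figure D2:**
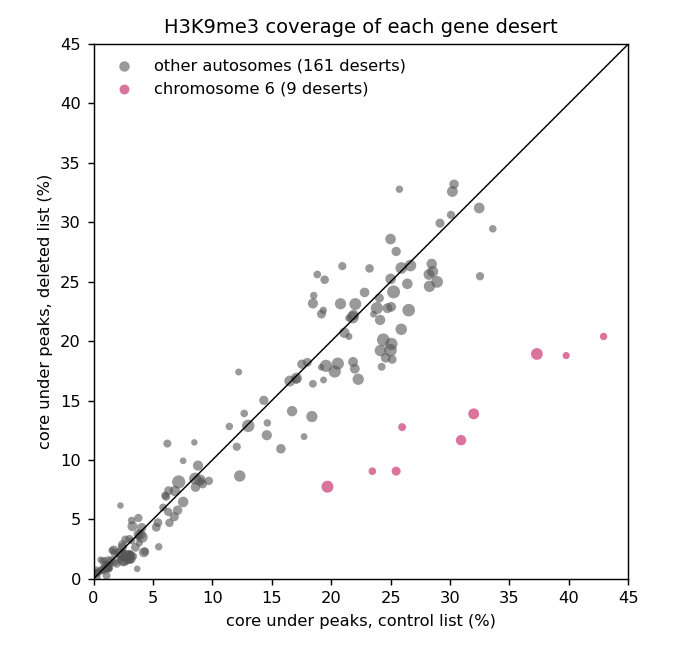
Each point is 1 desert with a core of 200 kb or more, with the percent of its core under control peaks on the x axis and under deleted-list peaks on the y axis, larger points for longer cores and chromosome 6 in its own colour. The 9 chromosome 6 deserts lie far below the diagonal, and outside chromosome 6 the 98 deserts below and 63 above it stay close to it.

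The 15 deserts past the factor in the lower direction were all sparsely covered, with under 5% mean coverage. A developmental transcription factor gene of the list described below bordered 3 of the 15 (20.0%), beside 7 of all 61 deserts with under 5% (11.5%), which was not tested. Genes of this list, Sall1 and Nr2f2, also border deserts past the factor in the other direction. Over the 11 deserts of the list, 6 were lower and 5 higher in the deleted list. Their pooled ratio was 1.01, against 0.932 for all 161 deserts. The Zeb2-Acvr2a desert (chr2:45617443-48314108, 2.70 Mb) separates Zeb2, a zinc finger repressor of epithelial genes, from an activin receptor gene. It had 68 control and 49 deleted-list peaks over 2.52% and 1.57% of its core. In the Celf2-Gata3 desert, beside a transcription factor gene of T cells and the inner ear, the values were 44 peaks with 2.89% and 27 peaks with 1.66%. The Kcnj3-Nr4a2 desert, beside an orphan nuclear receptor gene, went from 3.08% to 1.61%. Both sides of Epha7, an ephrin receptor gene, were lower in the deleted list: Manea-Epha7 had 7.54% and 6.47%, within the 1.5-fold limit, and Epha7-Map3k7 had 2.55% and 1.58%, past it. Tmprss15-Ncam2, beside an adhesion molecule gene, had 51 control peaks over 4.24% and 34 deleted-list peaks over 2.23%. Mmut-Ptchd4 (5.48% and 2.69%), Slc8a1-Pkdcc (4.33% and 2.31%), Ttll7-Adgrl2 (3.16% and 1.67%), Kcna4-Mettl15 (3.14% and 1.95%) and Atxn7l3b-Trhde (3.33% and 1.89%) also had the lower share in the deleted list. The other 5 lower deserts rested on few peaks. Ccer1-Atp2b1 had 6 control peaks and 1 deleted-list peak, Adgrl3-Tecrl 6 and 3, and Adgra3-Ppargc1a, beside the gene of a mitochondrial biogenesis coactivator, 5 and 3. Nrsn1-Hdgfl1 had 9 and 8, and Gbe1-Robo1, beside an axon guidance receptor gene, 15 and 6.

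Of the 6 deserts past the factor in the other direction, Stpg2-Pdha2 was the one with more than 5% mean coverage. Pdha2 encodes a testis form of a pyruvate dehydrogenase subunit, and this desert on chromosome 3 went from 34 peaks over 6.21% to 57 peaks over 11.4%. Sall1-Tox3, beside a zinc finger gene of kidney development, went from 7 to 13 peaks (2.26% and 6.16%), and Gm4868-Tmem132c from 12 to 21 (3.21% and 4.91%). Arrdc4-Nr2f2, beside a nuclear receptor gene, had 7 and 11 peaks. Rorb-Anxa1 had 6 peaks in each list, over 1.54% and 2.39%, and Klf4-Actl7b had 1 and 2.

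Most of the longest deserts were well covered. Celf4-Pik3c3 on chromosome 18 (chr18:26254521-29765614), between genes of an RNA-binding protein and an autophagy lipid kinase, was the longest with 3.51 Mb, and peaks covered 7.17% in control cells and 8.15% after deletion. Cntnap5b-Cdh20 on chromosome 1 (chr1:100990600-104268339, 3.28 Mb), between genes of a neurexin-family protein and a cadherin, held the most peaks of any desert, 560 in the control and 600 in the deleted list, over 25.2% and 24.1%. Tenm3-Aga on chromosome 8 (chr8:50022825-53011682, 2.99 Mb), beside a teneurin gene, had 24.4% and 20.1%. Deserts of similar length thus differed widely in coverage. Slc39a10-Tmeff2 on chromosome 1 (chr1:47425777-50400682), beside a zinc transporter gene, had 25.0% and 19.2%. Lrrc4c-Iftap on chromosome 2 (chr2:98131673-101060778), beside the gene of a netrin-G ligand, had 26.5% and 22.6%, yet contained a stretch of 237.9 kb without a peak in either list. Dsel-Cntnap5a on chromosome 1 was covered less, by 13.0% and 12.9%. The 3 longest on chromosome 5 were Pcdh7-G6pd2 with 25.1% and 19.8%, Igfbp7-Adgrl3 with 19.6% and 17.9% and Stim2-Pcdh7 with 20.3% and 17.4%. Pcdh7 encodes a protocadherin and has a desert on both sides, of which the one towards G6pd2 had the larger fall. Zeb2-Acvr2a, described above, completes the 10 longest and was the one of them with under 5%.

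Among deserts with cores of 200 kb or more, the most covered went both ways. Mdga2-Rps29 on chromosome 12 had 30.3% in control cells and 33.2% after deletion. Ppp6c-Lrp1b on chromosome 2, beside a lipoprotein receptor gene, had 33.6% and 29.5%, and Ptprd-Tyrp1 on chromosome 4, between genes of a synaptic phosphatase and a melanin enzyme, had 30.2% and 32.6%. Close to 1 in 3 bases of these 3 deserts lay under peaks in each list. Adcyap1-Mettl4 on chromosome 17, beside the gene of the neuropeptide PACAP, had 30.1% and 30.6%, and Vrk2-Ccdc85a on chromosome 11 29.2% and 29.9%. Htr1a-Ipo11 on chromosome 13, beside a serotonin receptor gene, went from 25.7% up to 32.8%, whereas Gm42163-Cenpc1 on chromosome 5, beside a centromere protein gene, went from 32.5% down to 25.5%. Of these 7 deserts, 5 had the higher share in the deleted list and 2 the lower.

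In percentage points, and with the same limit on core length, the largest falls outside chromosome 6 were mostly in well covered deserts. Shorter cores moved more, such as St8sia4-Slco4c1 (31.7% and 20.8%), named after its values were seen. After Gm42163-Cenpc1 these were Rgs18-Brinp3 on chromosome 1 (25.1% and 18.5%), beside a gene of a G protein regulator of platelets, Grm3-Gm5861 on chromosome 5 (24.2% and 17.8%), beside a glutamate receptor gene, and Gm597-Phf3 on chromosome 1 (24.6% and 18.6%). Slc39a10-Tmeff2 and Pcdh7-G6pd2, described above, also belonged to them. Pdcd1-Fam174a on chromosome 1, beside the gene of PD-1, an inhibitory receptor of T cells, had 39 peaks over 17.7% and 31 over 12.0%, a ratio of 0.675. Prmt6-Amy2b on chromosome 3, between genes of an arginine methyltransferase and an amylase, had 314 peaks over 22.3% and 246 over 16.8%. The largest rises in cores of this length were of similar size, and the shorter Tbc1d22a-Tafa5 core, also named after its values were seen, rose more (14.2% and 26.4%). After Htr1a-Ipo11 came Fbxo15-Neto1 on chromosome 18 (18.8% and 25.6%), beside the gene of a kainate receptor partner, and Lratd1-Trib2 on chromosome 12 (19.4% and 25.2%), beside a pseudokinase gene. Kif2b-Car10 on chromosome 11 (20.9% and 26.3%) and Grin3a-Cylc2 on chromosome 4 (18.5% and 23.8%), between genes of an NMDA receptor subunit and a sperm head protein, followed. Ipmk-Zwint on chromosome 10 (12.2% and 17.4%), beside a kinetochore gene, Stpg2-Pdha2, and Bcl11a-Fancl on chromosome 11 (18.5% and 23.2%), beside a zinc finger gene of blood and brain, complete the 8. With peaks at −log10 q of 2 or more alone, all 8 falls kept their direction, while 6 of the 8 rises turned into falls (Htr1a-Ipo11, Fbxo15-Neto1, Lratd1-Trib2, Kif2b-Car10, Grin3a-Cylc2 and Bcl11a-Fancl). At that threshold Mdga2-Rps29, Vrk2-Ccdc85a and Adcyap1-Mettl4 also turned, and so did Celf4-Pik3c3. The whole deleted list was lower at that threshold: 55.0% of all windows were lower by 1.5-fold, and the log2 ratio over all deserts outside chromosome 6 was -0.91, in place of -0.10. The turned rises and the kept falls are therefore not read as properties of single deserts. Over all peaks, the largest of these moves were the 7.04 percentage points gained by Htr1a-Ipo11 and the -7.06 points of Gm42163-Cenpc1.

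**Figure D3:**
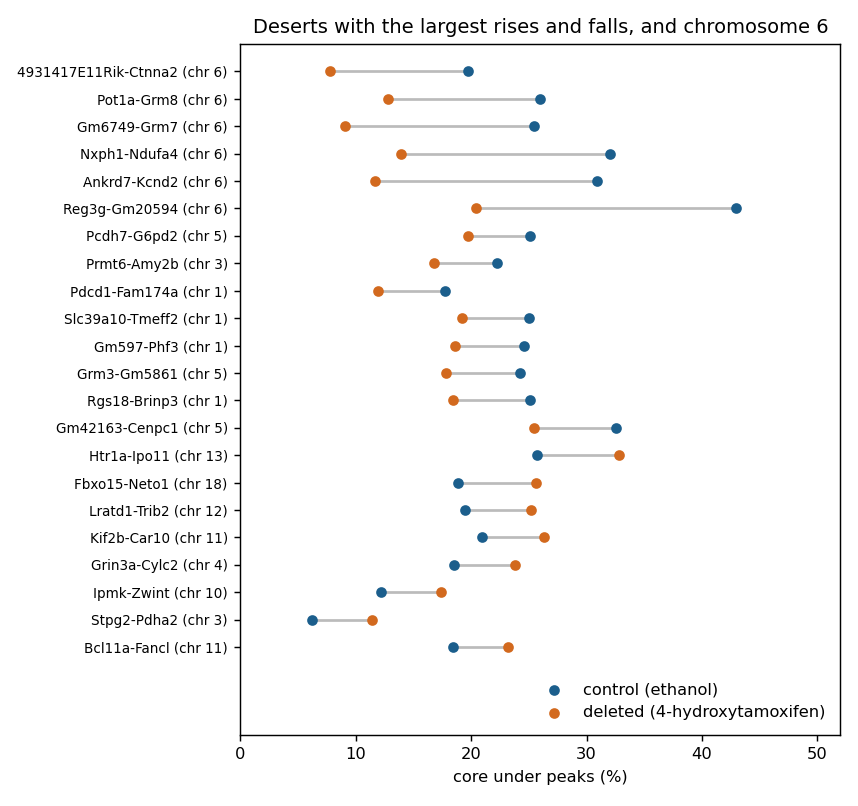
Percent of the core under peaks (x axis) in the control and the deleted list, joined by a line, for deserts with cores of 200 kb or more: the 8 with the largest falls and the 8 with the largest rises outside chromosome 6, and 6 on chromosome 6. The chromosome 6 deserts shown all drop, and by more than the other deserts shown.

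The rest of the long deserts can be followed by chromosome. Chromosome 1 had 21.3 Mb of desert cores, the most of all. Brinp3-Pla2g4a, between genes of a neural protein and a phospholipase, had 28.3% and 24.6%, and Serpinb8-Cdh7 had 28.5% and 26.5%. Kcnt2-Cdc73, beside a potassium channel gene, went from 233 peaks over 12.3% to 176 over 8.65%. On this chromosome Tmem182-Pou3f3 (2.13% and 2.19%) and Slc4a3-Epha4 (1.72% and 2.41%) were nearly bare. On chromosome 3, Snx16-Ralyl had 25.9% and 21.0%, Otol1-Sis, between genes of an inner ear collagen-like protein and sucrase-isomaltase, 18.4% and 13.7%, and Fstl5-Rapgef2 16.7% and 14.1%. The 2 long protocadherin deserts of this chromosome differed in level: D3Ertd751e-Pcdh10 had 23.8% and 22.8% and Pabpc4l-Pcdh18 8.54% and 8.43%. Adgrl2-Adgrl4, between 2 adhesion receptor genes, had 20 peaks in each list over 1.22% and 1.02% of its 1.45 Mb. On chromosome 4, Lingo2-1700009N14Rik had 25.0% and 25.2% and Pou3f2-Mms22l 22.8% and 24.1%, neither of them lower in the deleted list. Lcorl-Slit2 on chromosome 5, beside an axon guidance gene, had 21.8% and 18.2%.

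On chromosome 7, 1700015G11Rik-Luzp2 went from 285 peaks over 20.8% to 337 over 23.1%, and Gm15501-Tenm4 had 8.96% and 8.29%. On chromosome 8, Got2-Cdh8 had 25.9% and 26.2% and the neighbouring Cdh8-Cdh11 28.9% and 25.0%. Slc10a2-Efnb2, between genes of a bile acid transporter and an ephrin, was nearly bare with 35 and 28 peaks over 1.24% and 1.41% of 2.12 Mb. It was thus far less covered than Got2-Cdh8 and Cdh8-Cdh11, whose cores are of similar length. How coverage relates to core length was not tested. On chromosome 9, Cntn5-Jrkl, beside a contactin gene, had 24.1% and 21.8%, while Plod2-Dipk2a, beside the gene of a collagen lysyl hydroxylase, had 1.84% and 2.13%. On chromosome 10, Hace1-Grik2, beside a kainate receptor gene, had 22.0% and 23.1%, and Nmbr-Cited2, beside a transcriptional coregulator gene, 4.08% and 3.51%. On chromosome 11, Tenm2-Mat2b had 21.8% and 22.0%. On chromosome 12, Klhl29-Apob, beside the apolipoprotein B gene, had 21.9% and 22.2%, Lrfn5-Fscb 16.5% and 16.6% and Immp2l-Dnajb9 14.6% and 12.1%. Flrt2, an adhesion gene, had a bare desert on one side (Gm40892-Flrt2, 1.08% and 1.06%) and a moderately covered one on the other (Flrt2-Galc, 6.85% and 7.39%).

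On chromosome 13, Cox7c-Edil3 had 28.5% and 25.8%, and Nr2f1-Arrdc3, beside a nuclear receptor gene, 17.1% and 16.9%. Cetn3-Mef2c, beside the muscle gene, went from 42 peaks over 6.31% to 51 over 7.42%. On chromosome 15 a row of cadherin genes bordered 4 of the deserts. Cdh6-Cdh9 had 20.6% and 18.1%, Cdh9-Cdh10 15.8% and 10.9%, Cdh10-Cdh12 6.03% and 7.01% and Cdh18-Basp1 4.06% and 4.30%, a wide range among neighbours. Kcnv1-Csmd3 had 26.4% and 24.8% and Khdrbs3-Fam135b 21.1% and 20.7%. On chromosome 16, Ncam2 had a well covered desert towards Mrpl39 (24.1% and 19.2%) and the sparse one towards Tmprss15. Both had a lower share in the deleted list. Epha6-Nsun3 had 24.7% and 22.8% and Alcam-Zpld1 2.45% and 1.96%. On chromosome 17, Fam98a-Crim1 had 28.2% and 25.6% and Nudt12-Efna5, beside an ephrin gene, 2.83% and 1.91%. On chromosome 18, Cdh2-Dsc3, between the genes of N-cadherin and a desmocollin, had 26.7% and 26.4%, and Cbln2-Socs6 had 3.28% and 4.42%. On chromosome 19, Sorcs3-Sorcs1 had 19.3% and 22.6% and Sorcs1-Ins1, beside an insulin gene, 6.10% and 6.91%.

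At the bare end, the 5 least covered deserts of 200 kb or more had 1 to 5 peaks per list. Tle4-Psat1 on chromosome 19, beside a corepressor gene, had 1 peak in each list. Camk1g-Plxna2 had 1 and 2, and Id2-Rnf144a, beside the gene of an inhibitor of differentiation, had 1 and 2. Ccdc54-Cblb on chromosome 16, beside a ubiquitin ligase gene, had 3 in each list and the longest stretch of a desert core without a peak in either, 282.8 kb. Arpp21-Pdcd6ip had 4 and 5. The 55 deserts outside chromosome 6 with cores under 200 kb held 396 deleted-list peaks and about as many control peaks in 5.83 Mb. In 5 small deserts neither list had a peak, namely Nr5a2-Ptprc, Pex2-1700008P02Rik, Gdf6-2610301B20Rik, Tmem38b-Zfp462 and, on chromosome 6, Mdfic-Tfec, with cores of 102 kb, 36.8 kb, 11.7 kb, 82.5 kb and 28.8 kb.

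**Figure D4:**
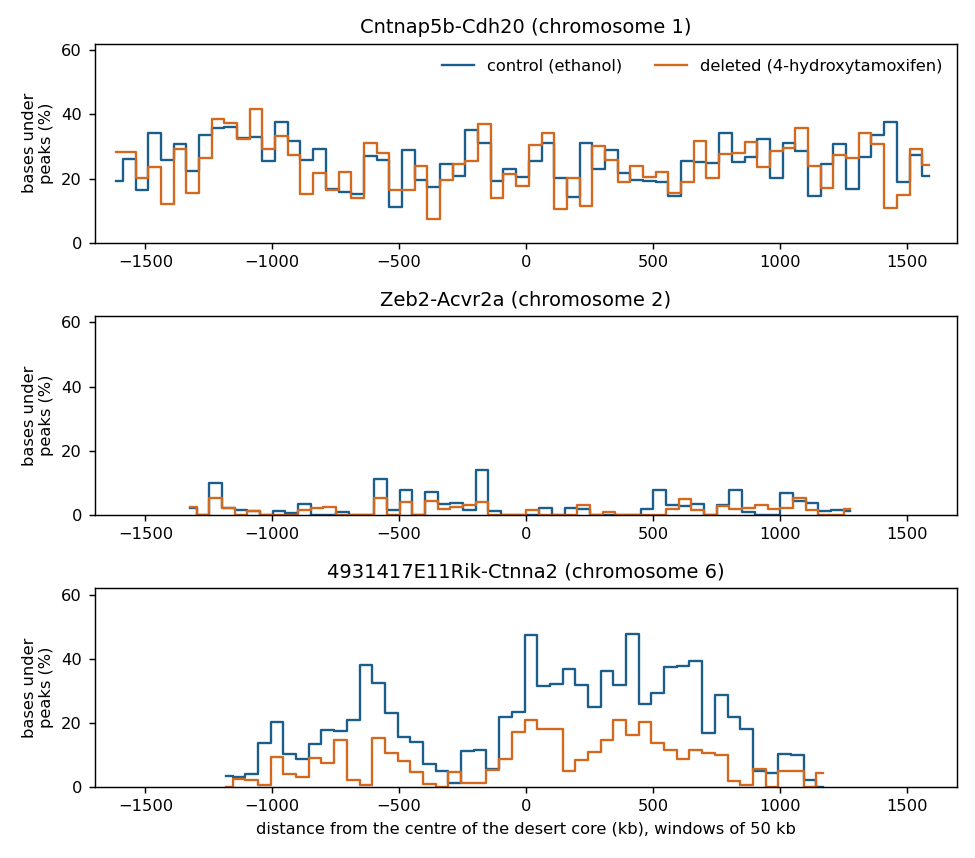
Percent of bases under peaks (y axis) in windows of 50 kb along 3 desert cores, against distance from the centre of the core in kb (x axis), with 1 line per list. Cntnap5b-Cdh20 is covered along its length in both lists, Zeb2-Acvr2a has isolated covered windows, and in 4931417E11Rik-Ctnna2 on chromosome 6 the control line lies above the deleted line over most of the core.

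Deserts with certain kinds of gene at their border differed in level. The gene lists were set by symbol and are described without a test. Of 28 cadherin and non-clustered protocadherin genes on the 18 chromosomes, which mediate cell adhesion, 14 flanked a desert, compared with 2.12% of all 19814 protein-coding genes. The 14 cadherin deserts outside chromosome 6 with cores of 200 kb or more had a median mean coverage of 20.9%, against 8.97% for all 161, and 9 of them had 15% or more. Their cores were also longer on average, with 26.4 Mb in the 14 and 168 Mb in all 161, and coverage was higher farther from genes. The groups were not matched for core length, so length and the kind of border gene cannot be told apart here. Of 124 neuronal adhesion genes, 27 (21.8%) flanked a desert, and the 30 deserts had a median of 13.8%. Of 288 channel and transmitter receptor genes, 15 (5.21%) flanked a desert, and their 8 deserts had a median of 21.1%. Developmental transcription factor genes behaved differently: 19 of 201 (9.45%) flanked a desert, and the median of their 11 deserts was 2.35%, with 7 under 5% and 4 at 15% or more. The well covered ones include Pou3f2-Mms22l, Bcl11a-Fancl and Nr2f1-Arrdc3, and the 7 sparse ones include Zeb2-Acvr2a, Celf2-Gata3 and Kcnj3-Nr4a2. The 100 deserts with none of these genes at their border had a median of 6.69%. The deleted list was lower in 11 of 14 cadherin deserts, 18 of 30 neuronal adhesion deserts, 5 of 8 channel deserts, 6 of 11 transcription factor deserts and 60 of the 100 others. A desert bordered by genes of 2 lists counts in both.

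**Figure D5:**
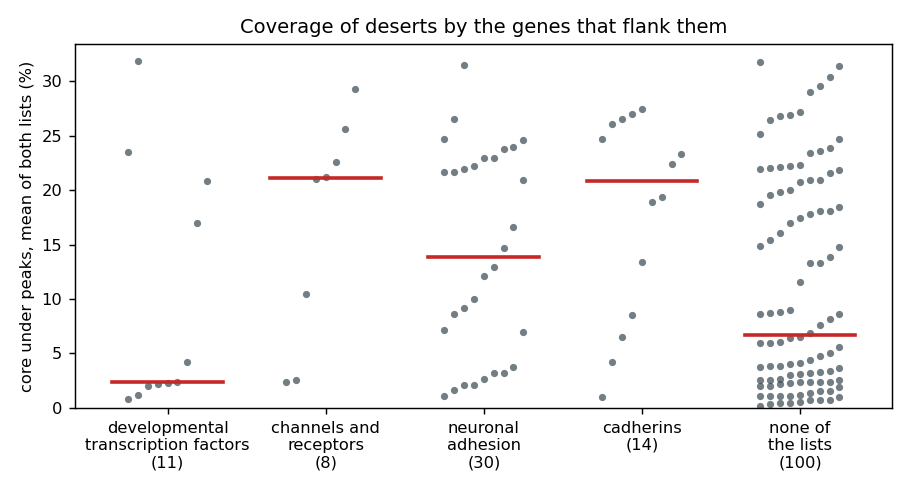
Mean percent of the core under peaks over both lists for each desert outside chromosome 6 with a core of 200 kb or more, grouped by the kind of protein-coding gene at its border, with a line at each group's median. The medians are 20.9% for cadherin deserts, 13.8% for neuronal adhesion, 21.1% for channels and receptors, 2.35% for developmental transcription factors and 6.69% for the remainder. The groups are not matched for core length.

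On chromosome 6 coverage was lower in the deleted list in every desert that had a peak. Peaks covered 29.4% of its desert cores in control cells and 12.9% after deletion, with a ratio of 0.440. The rest of the chromosome was also lower, with 9.21% and 4.78% and a ratio of 0.519. In the control list both shares lay well above those of the other chromosomes, 15.1% in deserts and 4.55% in the rest. In the deleted list they were near them, 14.1% and 4.94%. Chromosome 6 thus stood apart in the control list rather than in the deleted list, and the cause was not tested. The log2 ratio of the chromosome 6 deserts minus that of the rest of chromosome 6 was -0.24, close to the -0.22 of the other chromosomes. All 9 of its deserts of 200 kb or more were past 1.5-fold lower, beside 83.5% of its 1 Mb windows, and none was higher, beside 0% of windows. Their ratios ran from 0.356 to 0.507 with a median of 0.434, and the windows had a median of 0.527.

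Desert by desert, Reg3g-Gm20594, beside the gene of an intestinal lectin, had 65 peaks over 42.9% and 60 over 20.4%. Nxph1-Ndufa4, beside a neurexophilin gene, had 32.0% and 13.9%, and Ankrd7-Kcnd2, beside a potassium channel gene, 30.9% and 11.7%. The glutamate receptor genes Grm8 and Grm7 border 2 further deserts, Pot1a-Grm8 with 26.0% and 12.8% and Gm6749-Grm7 with 25.5% and 9.06%. The longest, 4931417E11Rik-Ctnna2 (chr6:73969668-76381636, 2.41 Mb), beside an alpha-catenin gene, had 338 peaks over 19.7% and 196 over 7.75%. The small Lrrtm4-Gcfc2 core had 15 and 11 peaks, and Mdfic-Tfec had none. Peaks here were also narrower in the deleted list (median 813 bp, against 1210.5 bp in the control list) and farther apart (median spacing 4.50 kb, against 2.63 kb). Of the control desert peaks on chromosome 6, 56.5% (54.2 to 58.8) had no partner, beside 55.3% of all its control peaks. Of the deleted-list desert peaks, 32.8% (30.3 to 35.5) had none, beside 33.3% of all its deleted-list peaks.

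Among the noncoding genes inside desert cores outside chromosome 6, the bodies of 233 long noncoding RNA genes were covered by 12.3% in control cells and 11.9% after deletion, and those of 390 pseudogenes by 14.3% and 15.2%. Gm32647, the longest of the long noncoding RNA genes, spans much of the Gm15501-Tenm4 desert and had 6.92% and 5.45%. 1700019L22Rik in Tenm3-Aga had 19.1% and 17.9%, and Gm12381 in Lingo2-1700009N14Rik 26.6% and 35.3%. Outside chromosome 6 and the immunoglobulin desert, promoter windows were less covered than their cores: 206 windows had 5.54% of their bases under control peaks and 4.76% under deleted-list peaks, where the cores that hold them had 10.7% and 10.2%. The 8 windows on chromosome 6 went the other way in the control list, with 50% of their bases under peaks against 29.5% of their cores, and had 0% against 13.0% in the deleted list. Genes covered whole in both lists include the pseudogene Gm2203 (943 bp, Kcnv1-Csmd3) and the segment pseudogene Ighv1-33 (391 bp).

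That segment belongs to Adam6a-Zfp386 on chromosome 12 (chr12:114046415-115547713), which holds immunoglobulin heavy chain segments and went from 265 peaks over 25.0% to 288 over 28.6%. The 115 segments outside chromosome 6 were covered by 17.5% in control cells and 31.2% after deletion.

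The strongest single desert peaks, ranked by the authors' fold enrichment within each list, were mostly short. In the control list, outside chromosome 6, the highest were chr4:27006833-27007219 in Manea-Epha7 (3.96, no partner), chr5:79018759-79019358 in Igfbp7-Adgrl3 (3.87, partner), chr18:18965797-18966312 in Cdh2-Dsc3 (3.74, partner) and chr5:10283810-10284168 in Grm3-Gm5861 (3.73, no partner). In the deleted list the highest were chr12:43549501-43549881 in Immp2l-Dnajb9 (4.36) and chr12:45818701-45819062 in Stxbp6-Nova1 (4.00), neither with a partner. The next, chr3:21105456-21106559 in Agtr1b-Tbl1xr1 (3.98), chr2:108046366-108046753 in Kcna4-Mettl15 (3.88) and chr13:78841923-78843680 in Nr2f1-Arrdc3 (3.74), had one. These peaks came from different deserts within each list. Further control peaks of high fold without a partner lay in Sqor-Sema6d (3.70), 4931417E11Rik-Ctnna2 (3.68) and Snx16-Ralyl (3.66), and further deleted-list ones in Ptprd-Tyrp1 (3.72), Fat4-Intu (3.71) and Tenm2-Mat2b (3.71). The widest desert peak was chr10:47251738-47266366 in Hace1-Grik2 (14629 bp, control list), and the widest of the deleted list was chr4:78962483-78974381 in Ptprd-Tyrp1 (11899 bp). At the 500.0 kb limit, the control peak just inside lay 500.014 kb from a gene with a fold of 2.59 and the one just outside 499.973 kb with 2.58. The deleted-list peaks at the limit lay at 500.008 kb (2.57) and 499.967 kb (2.52).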

How the data were processed

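The 2 deposited lists hold the broad peaks of 1 H3K9me3 library each, and the input libraries were not analysed here. Each peak has a display score, a fold enrichment (a linear ratio), a −log10 p-value and a −log10 q-value, as the authors deposited them. Only positions, fold and q were used. Fold and q served for description, ranks and thresholds, each applied within 1 list. Coverage by the peaks past such a threshold was also compared between the lists, a comparison that the unknown read depth limits. The submitters' processing notes name MACS2, BWA 0.7.17-r1188 and ChIPseeker 1.30.3, with the build mm10. The version and settings of MACS2, the use of the input and any pooling are not given in the sources used here. The replicate number in the peak names differs from that of the labels, and therefore each list was given to its group by the condition in the names.

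Gene bodies came from a RefSeq table of GRCm38.p6, the assembly behind mm10. Overlapping peaks of a list were merged, and coverage is the percent of bases under them. A partner is a peak of the other list that overlaps by 1 bp or more. Ratios are deleted over control. A desert was assessed for a change of 1.5-fold with a core of 200.0 kb or more and coverage of 1% or more in either list, and the same rule on 1 Mb windows of the same chromosomes gave the background. Outside chromosome 6 the text names the 10 longest cores, the 8 most and 5 least covered, the 8 largest falls and 8 largest rises, the 5 peaks of highest fold per list with and without regard to a partner, and the 5 most covered noncoding genes (ties by length), with the chromosome 6 deserts. Some deserts, genes and peaks that this rule takes are not reported here. The other deserts were added to describe each chromosome. Members and lists were chosen with earlier results of these data known. Shares of peaks have 95% Wilson intervals, which cover counting error only. Software was numpy 2.4.6 and scipy 1.17.1, with pandas 2.3.3 and matplotlib 3.10.9, under Python 3.11.15. The computation of coverage was tested on random intervals. The rule for lower coverage was tested on a copy of the control list from which all peaks of some desert cores had been removed.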

Additional observations from a re-analysis of the deposited data

Results flagged for a closer look

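Chromosome X lies outside the chromosomes described above. Its 22 deserts, with 12.9 Mb of cores chosen by the same distance, were covered by 2.68% in control cells and 5.45% after deletion, with a ratio of 2.03. It is given because it is a signal in data the comparison did not use and exceeds the control level. It was not tested, and the sex of the animals is not given in the sources used here. The 15 deserts of chromosome 14, also outside the comparison, had 0.683% and 0.506%, a ratio of 0.740. The rest of chromosomes X and 14 is not given here. A change of their deserts therefore cannot be told apart from one of the whole chromosome.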

How the results depend on the processing

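No paired analysis was possible because there was 1 H3K9me3 library of each kind, so that no replicate could be left out either. Of 106 alternative values other than those of single named deserts, 40 stayed within the limit set for each and 66 moved beyond it. The cause of these moves was not tested. Only the log2 ratios among the values could change direction, and 0 of them did. Member counts, shares without a partner and counts of deserts past the factor have no direction to change. Desert coverage relative to the rest outside chromosome 6 (-0.22 on the log2 scale) stayed negative in every setting that gave a value: -0.45 with peaks at −log10 q of 2 or more, -0.43 at 3 or more, -0.27 at the median fold or above, -0.18 at over 250 kb from genes, -0.26 at over 1 Mb and -0.086 with distance from any annotated gene. On chromosome 6 (-0.24) these values were -0.76, -1.66, -0.41 and, at over 250 kb, -0.12. The log2 ratio of desert coverage itself outside chromosome 6 (-0.10) was -0.91 and -1.003 at −log10 q of 2 and 3 or more, -0.15 with the same number of peaks per list, -0.051 with peaks joined within 5 kb, -0.047 at over 250 kb, -0.17 at over 1 Mb, -0.016 from any annotated gene and -0.051 as a mean over deserts. On chromosome 6 (-1.18) it was -2.90 and -3.90 at those q thresholds, -1.75 at the median fold or above, -1.05 with joined peaks and -1.07 at over 250 kb.

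Member counts outside chromosome 6 were 3038 control and 1894 deleted-list peaks when −log10 q reached 2, 171 and 97 when it reached 3, 32075 and 32976 at over 250 kb, 7294 and 7225 at over 1 Mb, and 219 and 244 from any annotated gene, which left 10 deserts with 1.88 Mb and none on chromosome 6. The share of control desert peaks without a partner was 69.0% when 50% of the peak had to be overlapped, 8.62% when a peak within 5 kb counted, 88.8% at −log10 q of 2 or more in both lists, 33.8% with only the counted list at 2 or more and 47.0% with the same number of peaks. The deleted-list shares were 66.0%, 6.99%, 82.0%, 35.4% and 43.1%. Outside chromosome 6, 3 of 153 deserts (1.96%) were lower at 2-fold, beside 0.815% of windows, and 2 (1.31%) higher, beside 4.08%. At −log10 q of 2 or more 77 of 108 were lower, beside 55.0% of windows. With joined peaks 20 of 155 (12.9%) were lower, beside 8.53% of windows, and 10 (6.45%) higher, beside 21.2%. Of the 35 named deserts outside chromosome 6 the direction turned in 12 at −log10 q of 2 or more, 6 of them among the 8 largest rises and 0 among the 8 largest falls, in 4 with joined peaks and in 1 with the same number of peaks. The turns at −log10 q of 2 or more go with the general fall of the deleted list there. The settings without deserts of immunoglobulin segments and with cores of 1 Mb or more were chosen after seeing the data. Depth is unknown and limits all comparisons of level.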
